A study of Homo sapiens with 2 samples.

Results

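The microRNAs (miRNAs) of the miR-23, miR-27 and miR-24 families are 5 mature RNAs, miR-23a-3p, miR-27a-3p, miR-24-3p, miR-23b-3p and miR-27b-3p, which were taken by their miRBase accessions from a table of 1001 array probes. All 5 had a value on both arrays, as did 519 probes in all. Their levels were measured in Huh7 cells, an established human hepatocellular carcinoma line, exposed to 10 µM Y27632 for 12 hours (1 array), and in control Huh7 cells (1 array). Y27632 is a small-molecule kinase inhibitor. Both cultures were of the same line, grown in serum-supplemented Dulbecco's medium, and neither vehicle nor harvest time is stated for the control. The record of the control sample carries the Y27632 treatment text as well, and its title and source name set it apart as the control. No condition was repeated, so no value below carries an error or a test, and each difference describes these 2 arrays. Whether the cultures carried hepatocyte markers was not analysed here, because the sources used here pair no other probe with a miRNA name.

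A miRNA binds messenger RNAs mainly through its seed, the bases near its 5′ end, and lowers the stability or translation of the messages it pairs with. The 5 RNAs come from a pair of paralogous clusters, each of which is transcribed as 1 primary RNA and cut into a miR-23, a miR-27 and a miR-24 hairpin. In liver and liver-derived cells these miRNAs are known for acting on TGF-beta signalling, lipid metabolism and hepatocyte transcription factors. The comparison asked whether the level of each miRNA differed after Y27632, and whether the products of the paralogous clusters differed alike.

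The miR-23a cluster spans 373 bases of chromosome 19 on the minus strand (GRCh38.p14, chr19:13836287-13836659) and lies within the bounds of the long non-coding RNA gene MIR23AHG, on the same strand. The miR-23b cluster spans 881 bases of chromosome 9 on the plus strand (chr9:95085208-95086088), within the bounds of the protein-coding gene AOPEP, an aminopeptidase gene on the same strand. Both clusters hold their 3 hairpins in the order miR-23, miR-27, miR-24. In the miR-23a cluster the hairpins lie 69 and 80 bases apart, against 140 and 479 bases in the miR-23b cluster. Gene bounds, not exons, were available, so exonic and intronic placement was not analysed here.

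**Figure D1:**
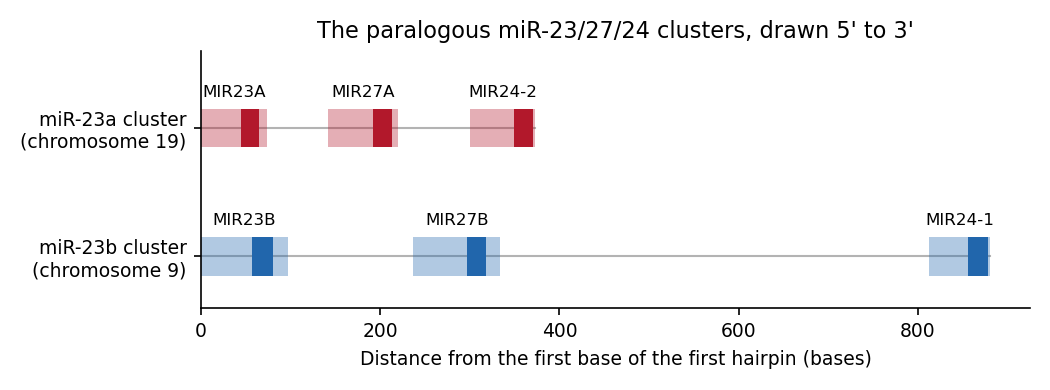
Hairpins of the miR-23a and miR-23b clusters by distance in bases from the first base of each cluster's first hairpin, with transcription running left to right. Pale boxes are hairpins and dark boxes the mature 3p RNAs. The miR-23a cluster ends at 373 bases and the miR-23b cluster at 881 bases, with the widest gap, 479 bases, before MIR24-1.

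The mature sequences show which measurements can be assigned to which cluster. They are given 5′ to 3′ as in RefSeq (GRCh38.p14), which held all 5, with the seed (bases 2 to 8) in capitals.
miR-23a-3p: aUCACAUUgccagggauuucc
miR-23b-3p: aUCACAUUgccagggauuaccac
miR-27a-3p: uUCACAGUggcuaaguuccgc
miR-27b-3p: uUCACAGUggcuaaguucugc
miR-24-3p: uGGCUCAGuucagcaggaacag

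The 5 RNAs carry 3 seeds. The seed UCACAUU belongs to both miR-23 paralogs, and its perfect messenger RNA match is AAUGUGA. The seed UCACAGU belongs to both miR-27 paralogs, with the match ACUGUGA. The miR-23 and miR-27 seeds differ by U7G, counted from 1 at the 5′ end of the mature RNA. The miR-24 seed, GGCUCAG, pairs with CUGAGCC. Among 2370 mature human miRNA names in the RefSeq table, 1 other carries the miR-23 seed (miR-23c), 1 other carries the miR-27 seed (miR-9985) and no other carries the miR-24 seed.

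Paralogs differ outside the seed. Between miR-23a-3p and miR-23b-3p the substitution is U19A over the 21 bases they share, and miR-23b-3p runs on for 2 more bases. Between miR-27a-3p and miR-27b-3p the substitution is C19U, and both are 21 bases long. The remaining 20 of 21 bases were identical in each pair. How much of a probe's signal came from the other paralog was not measured.

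The mature miR-24-3p is made by both clusters and has 1 probe, so its value cannot be divided between them. The hairpins that yield it are printed to show this, with the mature RNA in capitals.
MIR24-2 (miR-23a cluster, chr19:13836287-13836359, minus strand): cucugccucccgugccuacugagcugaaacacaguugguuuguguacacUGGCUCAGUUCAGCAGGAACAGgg
MIR24-1 (miR-23b cluster, chr9:95086021-95086088, plus strand): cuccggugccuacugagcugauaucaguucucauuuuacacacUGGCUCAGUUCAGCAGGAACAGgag
The 22 bases of miR-24-3p are the same in both hairpins. The opposite arms, miR-24-2-5p and miR-24-1-5p, share 16 of 22 bases by position.

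All 5 miRNAs read lower on the Y27632 array than on the control array, by between 7.91% and 21.6%. The deposited values are array intensities, judged to be on a linear scale from their range, and ratios were taken with no further scaling. The log2 ratio of Y27632 over control ran from −0.35 to −0.12 over the 5, with a median of −0.21, against a median of 0.00 over all 519 probes. None of the 5 differed by 2-fold, a limit that 2.50% of the 519 probes passed as higher and 0.578% as lower. None differed by 1.5-fold either, against 8.86% of all probes higher and 5.39% lower by that much. All 5 were in the brighter 50% (260 probes), where 0.00% were 2-fold higher and 0.385% 2-fold lower, and 1.15% and 2.31% were 1.5-fold higher and lower. Total RNA of whole cultures was measured, so fewer cells with a miRNA and less of it per cell cannot be told apart.

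A ratio below 0 was common among bright probes. Of all 519 probes, 254 (48.9%) lay below 0, and of the 260 in the brighter 50%, 145 (55.8%) did. The 5 miRNAs had geometric mean intensities from 104 to 620. In that range there were 42 probes, the 5 included, and 26 (61.9%) lay below 0. Leaving the 5 out, 21 of 37 did, with a median log2 ratio of −0.02 and quartiles of −0.11 and 0.05.

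In the miR-23a cluster, miR-23a-3p (MIMAT0000078) read 548.5 on the Y27632 array and 700.0 on the control array. This miRNA is known to repress glutaminase, the enzyme that opens glutamine breakdown. Its log2 ratio was −0.35 as deposited, a decrease of 21.6% and the farthest from 0 of the 5. Among the 100 probes nearest in brightness, which ran from 38.4 to 8210 in geometric mean intensity, 4 had a lower ratio. The median of those 100 was −0.01, and miR-23a-3p lay 2.37 robust SDs below it, the robust SD being the scaled median absolute deviation of their log2 ratios (0.14). It was also the lowest of the 42 probes in the brightness range above, where the lowest of the other 37 was at −0.349 and miR-23a-3p at −0.352. As the brightest of the 5, miR-23a-3p sets the upper end of that range, so every probe compared with it there is dimmer. After quantile normalization its log2 ratio was −0.17, with 14 of the 100 probes lower and a distance of 1.45 robust SDs, and miR-24-3p and miR-23b-3p then lay farther from 0.

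The second product of that cluster, miR-27a-3p (MIMAT0000084), read 190.2 on the Y27632 array and 220.9 on the control array. The miR-27 family is known for repressing regulators of fat-cell formation and lipid handling. Its log2 ratio was −0.22, a decrease of 13.9%. Of the 100 probes nearest in brightness, 19 had a lower ratio, and miR-27a-3p lay 1.30 robust SDs below their median. Quantile normalization left a log2 ratio of −0.08, which was 0.50 robust SDs below.

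In the miR-23b cluster, miR-23b-3p (MIMAT0000418) read 505.1 on the Y27632 array and 582.6 on the control array. With its cluster partners, miR-23b-3p is known in mouse fetal liver cells to lower Smad proteins, the signal carriers of TGF-beta. Its log2 ratio was −0.21, a decrease of 13.3%. Of the 100 probes nearest in brightness, 16 had a lower ratio, and it lay 1.37 robust SDs below their median. Quantile normalization gave a log2 ratio of −0.174, with 12 of the 100 lower and a distance of 1.505 robust SDs. That was slightly farther out than miR-23a-3p under the same setting (−0.167 and 1.450).

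The second product, miR-27b-3p (MIMAT0000419), was the dimmest of the 5 probes, at 100.1 on the Y27632 array and 108.7 on the control array. It carries the same seed as miR-27a-3p and is known as a repressor of lipid-metabolism genes in mouse liver. Its log2 ratio was −0.12, a decrease of 7.91%. Of the 100 probes nearest in brightness, 30 had a lower ratio, and it lay 0.53 robust SDs below their median, within the spread of like probes. Quantile normalization gave a log2 ratio of −0.09, with 27 of the 100 lower and a distance that was again 0.53 robust SDs.

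The shared product, miR-24-3p (MIMAT0000080), read 440.6 on the Y27632 array and 480.5 on the control array. In human hepatoma cells miR-24 is known to lower HNF4A, a transcription factor of hepatocytes. Its log2 ratio was −0.13, a decrease of 8.30%. Of the 100 probes nearest in brightness, 24 had a lower ratio, and it lay 0.77 robust SDs below their median, also within their spread. Quantile normalization moved it the other way, to a log2 ratio of −0.21 at 1.82 robust SDs below. The sets of 100 nearest probes overlap between the 5 miRNAs and include some of them, so these positions are not independent of one another.

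**Figure D2:**
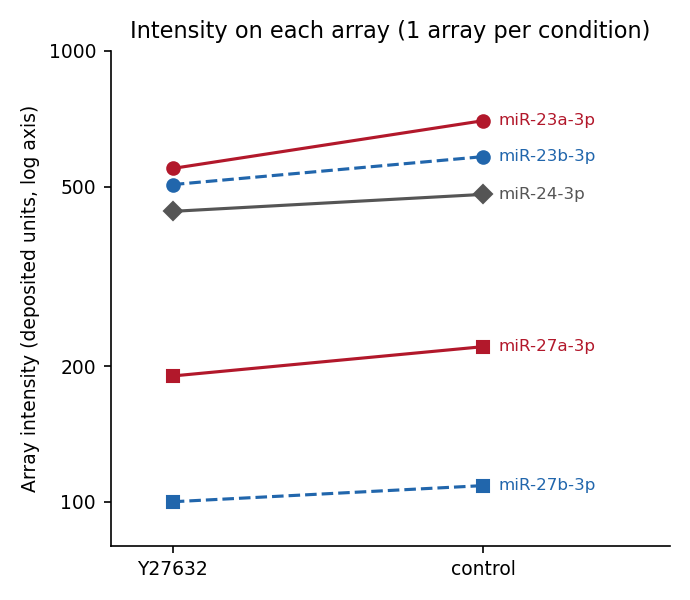
Deposited intensity (log axis) of the 5 miRNAs on the Y27632 array and the control array, with 1 point per array. Solid red lines are miR-23a cluster products, dashed blue lines miR-23b cluster products and grey the shared miR-24-3p. Every line is lower at Y27632, most steeply for miR-23a-3p (548.5 on the Y27632 array, 700.0 on the control array), and the heights of points of different probes carry no order of abundance.

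**Figure D3:**
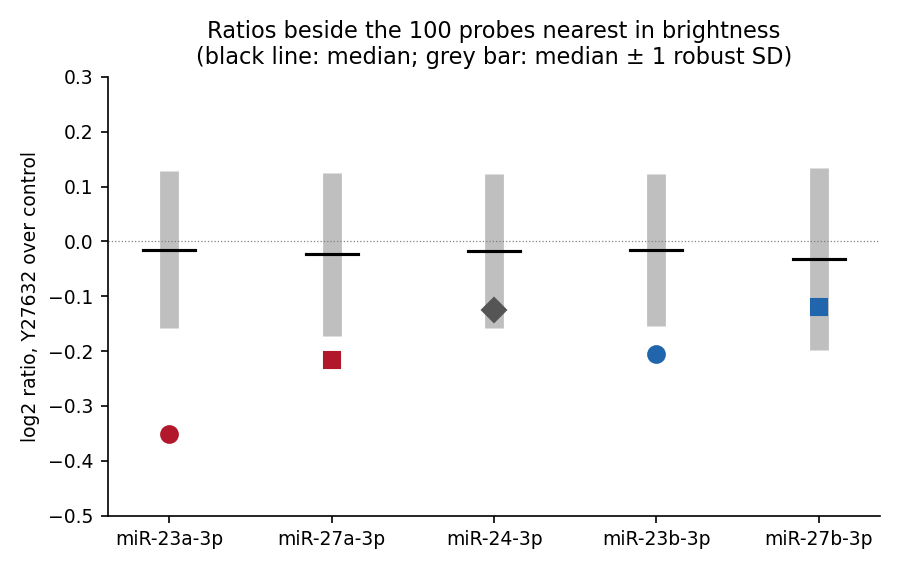
The log2 ratio of Y27632 over control for each miRNA (coloured points), beside the median (black line) and 1 robust SD to each side (grey bar) of the 100 probes nearest in brightness. The ratios of miR-23a-3p, miR-27a-3p and miR-23b-3p lie below the grey bar, and those of miR-24-3p and miR-27b-3p inside it.

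Brightness within each array moved little. Counting from the brightest listed probe, miR-23a-3p ranked 21 on the Y27632 array and 18 on the control array. For miR-23b-3p the ranks were 24 and 22, for miR-24-3p 26 and 24, for miR-27a-3p 42 and 40, and for miR-27b-3p 62 and 59, in each case with the Y27632 array first. The 5 thus stood 2 or 3 places further down among the 614 probes listed on the Y27632 array than among the 619 listed on the control array. These ranks order probe signals and not miRNA amounts, because probes differ in how brightly they report the same amount.

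**Figure D4:**
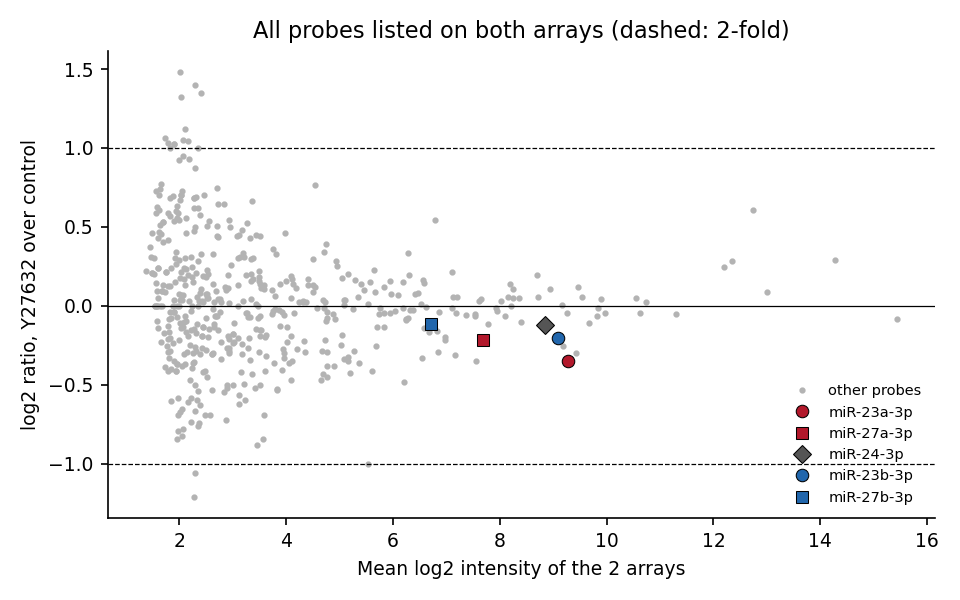
The log2 ratio of Y27632 over control against mean log2 intensity for the 519 probes listed on both arrays, with the 5 miRNAs in colour and 2-fold limits dashed. The 5 lie among the bright probes, below 0 and inside the 2-fold limits, with log2 ratios between −0.35 and −0.12.

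The paralogs were compared through their ratios, in which the brightness that belongs to each probe cancels. For the miR-23 pair the log2 ratio was −0.35 for miR-23a-3p and −0.21 for miR-23b-3p, a difference of −0.15. For the miR-27 pair it was −0.22 for miR-27a-3p and −0.12 for miR-27b-3p, a difference of −0.10. In both pairs the probe of the miR-23a cluster product thus had the lower ratio, though signal from the other paralog was not measured. The differences were 0.73 and 0.44 times the combined robust SD of the probes nearest to each pair (0.20 and 0.22). That value is the root of the summed squares of both paralogs' robust SDs, and it treats their overlapping probe sets as separate. Taken singly, the robust SDs were 0.143 for miR-23a-3p and 0.139 for miR-23b-3p, slightly below the size of the miR-23 difference (−0.146). For miR-27a-3p and miR-27b-3p they were 0.148 and 0.166, above the size of the miR-27 difference. The probes in these sets cover a wide range of brightness. After quantile normalization both differences were 0.01, with the opposite sign.

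Averaged by cluster, the log2 ratio was −0.28 for the 2 RNAs that only the miR-23a cluster makes, and −0.16 for the 2 that only the miR-23b cluster makes. After quantile normalization these means were −0.124 and −0.130, so the gap closed and its sign turned. The shared miR-24-3p, at −0.13, lay between miR-23b-3p and miR-27b-3p. Ordered by ratio from the lowest, the 5 were miR-23a-3p, miR-27a-3p, miR-23b-3p, miR-24-3p and miR-27b-3p. The steps between neighbours in that order were 0.14, 0.01, 0.08 and 0.01, each smaller than the robust SD of 0.14 or more among like probes. The order therefore does not separate one miRNA from the next beyond that spread, and after quantile normalization it was a different one, with miR-24-3p lowest.

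**Figure D5:**
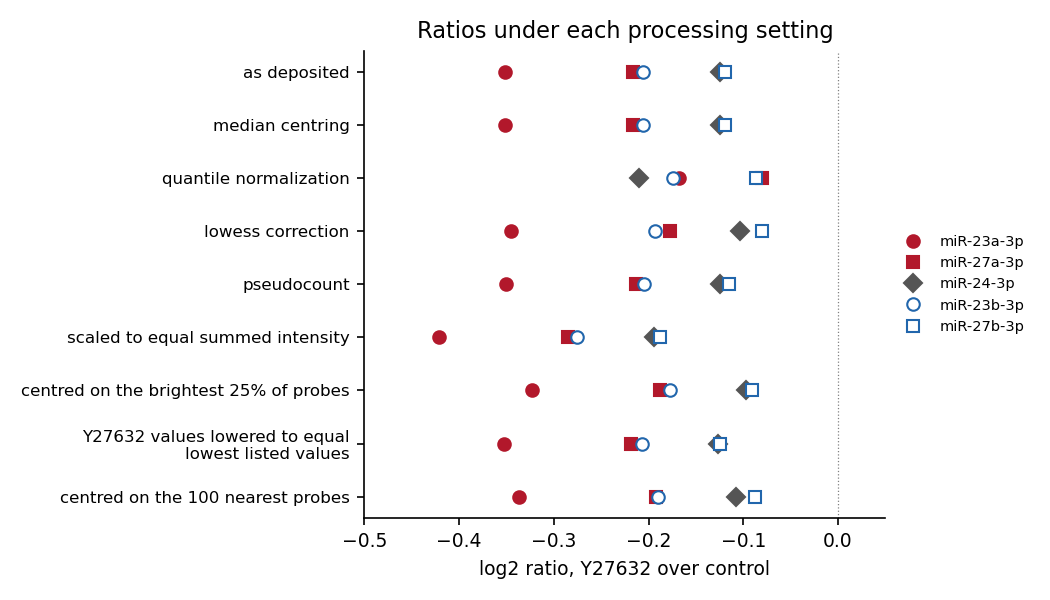
The log2 ratio of Y27632 over control of the 5 miRNAs (horizontal axis) as deposited and under 8 other processing settings (rows). All points lie below 0. The miR-23a-3p point is the lowest in each row but quantile normalization, where miR-24-3p is lowest at −0.21 and miR-23a-3p stands at −0.17. The rows for median centring, equal summed intensity and the brightest 25% of probes shift all 5 alike, so their order cannot change there.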

How the data were processed

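Mature miRNAs were measured on 2 single-colour arrays. Per the labels' protocols, total RNA was isolated with ISOGEN and labelled with the dye Hy5 using an Exiqon miRCURY kit. The deposited values are intensities, with the authors' background correction, normalization, array platform and detection limit not given in the sources used here. Their linear scale is inferred from their range, and scanner files were not used here. The control was assigned by its title. The 5 miRNAs and all lists were chosen with earlier results of these data known. MiRNA names of the 5 came with the list that defined the set, and their pairing with the probes could not be checked. The reference tables held 0 miRBase accessions, so opposite arms, seed relatives, cell type markers and further like-patterned miRNAs were not evaluated. By the naming rule only the 5 are named.

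The log2 ratio of Y27632 over control was taken on the intensities as deposited, without a pseudocount. Values carry 1 decimal, and rounding moves no ratio of the 5 by more than 0.0014. Each ratio was placed among the 100 probes nearest in mean log2 intensity. These sets cover a wide range of geometric mean intensity, from 38.4 to 8210 for miR-23a-3p and from 26.4 to 337 for miR-27b-3p. Depth does not apply to arrays, and their number limits the precision. Scripts were tested on simulated data with planted changes past the 2-fold limit, so the test did not cover changes as small as those of the 5. Quantile normalization was left out of its check on signs because it can lose changes of the brightest probes. Any sign lost there was at a probe brighter than all 5, so this is no ground to set that setting aside for them. Alternatives were median centring, quantile normalization, lowess (fraction 0.4), a pseudocount of 3 (the mean of the arrays' 10th percentiles), a 1.5-fold limit and the brighter 50% of probes. Another 4 scalings were added after seeing the data. Python 3.11.15, numpy 2.4.6, pandas 2.3.3, statsmodels 0.14.6 and matplotlib 3.10.9 were used.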

Additional observations from a re-analysis of the deposited data

How the results depend on the processing

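The log2 ratio of Y27632 over control stayed below 0 for all 5 miRNAs under the 4 planned scalings and the 4 scalings added after seeing the data, and 0 of the 5 passed a 2-fold or a 1.5-fold limit under any setting run. Over those settings and the deposited values it ran from −0.42 to −0.17 for miR-23a-3p, −0.29 to −0.08 for miR-27a-3p, −0.21 to −0.10 for miR-24-3p, −0.28 to −0.17 for miR-23b-3p and −0.19 to −0.08 for miR-27b-3p. The value for miR-23a-3p was −0.17 after quantile normalization, the only one to move by more than the robust SD of like probes. That setting gives each probe a reference value for its rank. A ratio then depends only on the probe's ranks on both arrays and on the spacing of values at those ranks. Why the value moved was not tested. The difference between miR-23a-3p and miR-23b-3p ran from −0.15 to 0.01, and that between miR-27a-3p and miR-27b-3p from −0.11 to 0.01, in both cases above 0 only after quantile normalization. Median centring moved nothing, since the median ratio was already 0.00. Scaling to equal summed intensity lowered every ratio by 0.07. Median centring, this scaling and centring on the brightest 25% of probes each shift all ratios by the same amount. They therefore could not change the differences between paralogs or the order of the 5, and their unchanged differences are no separate check. Leaving out replicates did not apply. No paired analysis was possible because there is a single array of each kind. Signal over background could not be examined.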

Other observations

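Likeness of pattern was measured among the 5 named miRNAs alone, as the distance between probes in the plane of the log2 intensities of both arrays. The closest pair was miR-23a-3p and miR-23b-3p (0.29), and miR-24-3p was next closest to miR-23b-3p (0.34). For miR-27a-3p the closest was miR-27b-3p (1.38). Over 2 arrays this distance reflects mainly how bright each probe is.

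The ratio between the paralogs' probe intensities, miR-23a-3p over miR-23b-3p, was 1.09 on the Y27632 array and 1.20 on the control array. For miR-27a-3p over miR-27b-3p it was 1.90 on the Y27632 array and 2.03 on the control array. Only the change of such a ratio between arrays can be read, since each probe has its own brightness.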
